A study of Mus musculus with 48 samples.

Results

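The genes described here are a chosen set that lies around Msh3 on mouse chromosome 13. A list of 40 genes within about 10 Mb of Msh3 was given by symbol, and those with chromosome 13 in the annotation of the count table and a mean of at least 0.5 CPM (counts scaled to a common library size) over all mice were kept. That left 35 genes of 48795 in the table. Of the other 5, Acot12 (0.209 CPM), Otp (0.0594 CPM) and Ckmt2 (0.04 CPM) lay under the floor, S100z had 0 counts in every mouse, and Rgnef has no row under that name. RefSeq gives Rgnef as a synonym of Arhgef28, which is described apart from the 35. The listed symbols leave out 10 neighbours of Msh3 whose RNA changed with the altered alleles, and earlier results of these data were known when the list was drawn, so a low number of changed genes among the 35 is in part set by the choice.

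Cortical RNA-seq libraries came from 48 mice of both sexes at 6 months, all labelled C57BL/6. The groups were 8 Q140 x Msh3-/- mice, 8 Msh3-/- mice, 8 Q140 x Msh3+/- mice, 9 Msh3+/- mice, 8 Q140 mice and 7 wild-type (WT) mice. Q140 is a knock-in of an expanded CAG repeat in the huntingtin gene Htt, carried on 1 of the 2 copies in 24 mice and absent from the other 24. Counted by altered Msh3 alleles, 15 mice had 0, 17 had 1 and 16 had 2. The labels give neither the construct of the altered Msh3 allele nor the strain it was made in, so the alteration of Msh3 and any other sequence inherited with it on chromosome 13 cannot be told apart. The libraries held 35.9 to 64.5 M counted reads, with a mean of 46.5 M.

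Msh3 encodes a mismatch repair protein that binds small loops in DNA, and it is known as a modifier of the growth of CAG repeats in Huntington's disease models. Genes beside an altered locus are inherited with it in a cross. The 35 neighbours share a location but no pathway: they encode matrix proteins, vesicle and lysosome proteins, ribosome and translation factors, cytoskeletal proteins and DNA repair proteins. Msh3 itself (chr13:92211872-92355003 on GRCm38, minus strand) ranged from 21.8 to 25.9 CPM in mice with 0 altered alleles, from 61.2 to 77.4 CPM with 1 and from 99.1 to 125 CPM with 2. The labels Msh3+/- and Msh3-/- therefore stand for 1 and 2 altered alleles here, and not for less Msh3 RNA.

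The 35 genes span chr13:88821472-98926384 on GRCm38, with 8 at lower coordinates than Msh3, from Edil3 to Zcchc9, and 27 at higher coordinates, from Fam151b to Tnpo1. The gene nearest to Msh3 was Fam151b, 0.0946 Mb away, and the farthest was Tnpo1, 6.48 Mb away. In 3 places a pair of them starts head to head, with the 2 RNAs reading away from each other. These stretches are shown because 1 window holds the RefSeq starts of both genes of a pair. The sequences are from RefSeq promoter windows on GRCm38.p6, plus strand, 5′ to 3′, with the bases that lie between the 2 start sites in capitals.
Tmem167 and Xrcc4 (chr13:90089417-90089716): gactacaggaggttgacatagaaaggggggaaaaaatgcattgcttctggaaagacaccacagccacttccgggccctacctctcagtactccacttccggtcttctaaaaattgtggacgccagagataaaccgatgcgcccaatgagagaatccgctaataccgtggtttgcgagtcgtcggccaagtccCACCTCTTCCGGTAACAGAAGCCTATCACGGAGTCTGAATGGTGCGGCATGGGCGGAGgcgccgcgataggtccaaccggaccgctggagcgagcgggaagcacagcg
Gfm2 and Nsa2 (chr13:97137687-97137986): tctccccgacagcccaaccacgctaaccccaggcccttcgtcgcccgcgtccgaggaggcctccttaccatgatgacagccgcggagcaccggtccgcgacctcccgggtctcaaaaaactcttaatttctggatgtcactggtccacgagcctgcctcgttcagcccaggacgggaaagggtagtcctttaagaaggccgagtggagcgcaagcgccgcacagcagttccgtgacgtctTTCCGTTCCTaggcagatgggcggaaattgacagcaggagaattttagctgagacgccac
Ankra2 and Utp15 (chr13:98262826-98263125): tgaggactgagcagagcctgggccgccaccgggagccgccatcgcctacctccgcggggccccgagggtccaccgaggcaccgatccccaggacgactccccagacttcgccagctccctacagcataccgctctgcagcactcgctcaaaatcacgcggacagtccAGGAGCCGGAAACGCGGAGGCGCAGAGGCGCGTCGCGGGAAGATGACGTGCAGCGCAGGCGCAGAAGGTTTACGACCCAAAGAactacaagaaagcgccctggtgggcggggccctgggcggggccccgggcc

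The stretch between the start sites was 58 bases for Tmem167 and Xrcc4, 10 bases for Gfm2 and Nsa2 and 83 bases for Ankra2 and Utp15. These are RefSeq starts: in GENCODE M21, the source of the gene positions used elsewhere, at least 1 start of each pair lies at another base, and the spans of Tmem167 and Xrcc4 overlap by 486 bases. G and C made up 56.3%, 60.0% and 69.0% of these 3 windows in the same order, beside a median of 52.7% over all promoters of that length. Over 44 promoter entries for 33 of the 35 genes, the letters GGGCGG, the core of a GC box, were found on either strand in 61.4%, against 35.7% of 32851 promoters of all genes. CCGGAA, the core of an ETS-family motif, was in 36.4% of theirs, against 14.9% of all. TATAAA was in 2.27% of theirs, against 13.6% of all, and CCAAT in 25%, against 37.4%. None of the 4 motifs contains another, and these shares describe letters in a window, not bound sites. The 35 genes were kept for a level of at least 0.5 CPM, while the 32851 promoters were not filtered by level. The part of that filter, or of this place on the chromosome, in these shares was not tested. Windows of the 3 head-to-head pairs also overlap, so their shared bases enter the 44 entries more than once.

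Levels per length covered a wide range. Enc1, a Kelch-family actin-binding protein of neurons, was the highest of the 35 at a mean of 169 FPKM (reads scaled by gene length and library total, as deposited), with mice from 136 to 205. Scamp1, a membrane protein of secretory carriers, followed at 44.5 FPKM, and Arsb, the lysosomal sulfatase that acts on dermatan and chondroitin sulfate, at 35.6 FPKM. The lowest were Vcan at 1.51 FPKM, Xrcc4 at 1 FPKM and Thbs4 at 0.557 FPKM. Between these ends most of the order was close: Mtx3, Fcho2 and Poc5 averaged 10.6, 10.4 and 10.3 FPKM, with mouse ranges that overlapped. Enc1 lay apart, since its lowest mouse had 136 FPKM and the highest mouse for Scamp1 had 48.6 FPKM.

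**Figure D1:**
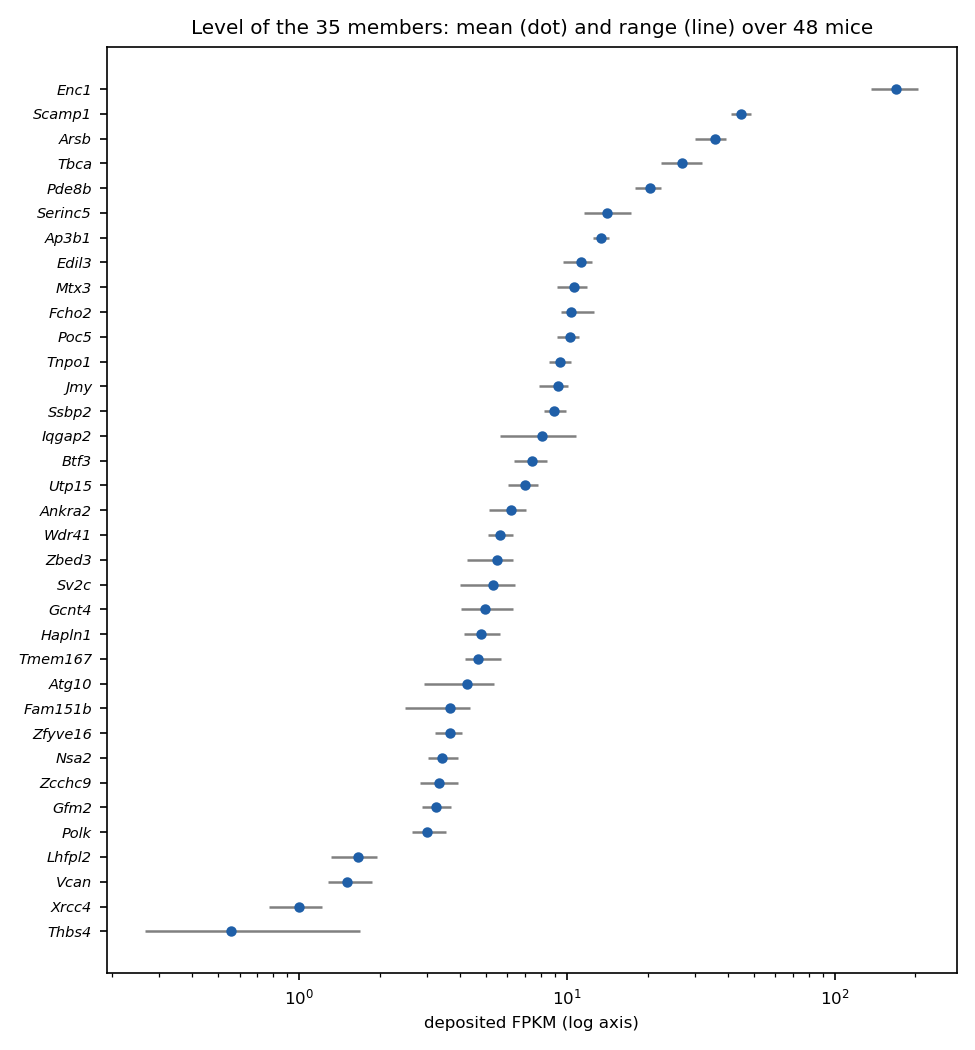
Level of each of the 35 genes in deposited FPKM on a log axis, with a dot for the mean and a line from the lowest to the highest of 48 mice. Enc1 stands at the top with 136 to 205 FPKM, and Thbs4 at the bottom with 0.267 to 1.69 FPKM, the widest line in relation to its mean.

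The listed genes under the floor are better known from other tissues or brain regions. Otp, a homeobox factor of the developing hypothalamus, had 135 counts over all 48 libraries. The 8 hypothalamic markers beside it (such as Pomc and Avp) each lay under 0.5 FPKM, and their sum ranged from 0.545 to 1.77 CPM per mouse. Ckmt2, the mitochondrial creatine kinase of striated muscle, had 89 counts and Acot12, a liver acyl-CoA thioesterase, had 461. Cortical markers were abundant: Slc17a7, the vesicular glutamate transporter of cortical excitatory neurons, averaged 234 FPKM, and the summed level of the 9 excitatory markers lay between 1960 and 2330 CPM in every mouse.

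The main comparison asked whether RNA of the neighbours moved with the number of altered Msh3 alleles, as a log2 change per allele fitted over all 48 mice with Q140 and sex as terms. None of the 35 was called at an adjusted p under 0.05 (edgeR's quasi-likelihood test, Benjamini-Hochberg over 20010 genes), beside 0.065% of all tested genes (13 genes). At an unadjusted p under 0.05 there were 9 of 35 (25.7%), beside 9.13% of all tested genes. DESeq2 called 1 of them, Thbs4, and limma with voom weights called 0. The changes were small: their median size was 0.025, beside 0.021 over all tested genes, and 21 of 35 were above 0 (counting Utp15 and Zbed3, both 0.000 when rounded), beside 47.2% of all tested genes.

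The fit was precise enough to bound most of these changes. The standard error of the change per allele had a median of 0.017, from 0.01 for Ap3b1 to 0.079 for Thbs4. The 95% interval lay wholly between -0.1 and 0.1 for 32 of the 35, and wholly between -0.05 and 0.05 for 12. The 3 genes whose interval went past 0.1 in either direction were Thbs4, Iqgap2 and Sv2c. For Ap3b1, the β3A subunit of the AP-3 adaptor that sorts cargo to lysosomes, the change was 0.018 with an interval from -0.002 to 0.038, and its median was 52.0, 54.1 and 54.3 CPM in mice with 0, 1 and 2 altered alleles.

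In gene order, neighbours that were called lie next to or between some of the 35. None of them lies among the genes from Edil3 to Zcchc9, or beyond Enc1, from Utp15 to Tnpo1. On the lower side, Rasgrf2 (-0.46 ± 0.03 per allele, log2 with SE) lies 72.7 kb from Zcchc9, a zinc knuckle protein, whose change was -0.025 ± 0.019. On the higher side, Ankrd34b (-0.11 ± 0.02) lies 7.97 kb from Fam151b, which had -0.016 ± 0.029. Dmgdh (0.30 ± 0.06) lies 18.8 kb from Arsb, and Fam169a (-0.13 ± 0.02) lies 6.92 kb from Gfm2. In all, 10 of the 85 other tested genes within 10 Mb were called (Rasgrf2, Ankrd34b, Cmya5, Bhmt2, Dmgdh, AW495222, Crhbp, F2r, F2rl2 and Fam169a, named here after their values were seen). An unadjusted p under 0.05 was found for 23 of these 85 (27.1%), for 44 of 554 genes on the rest of chromosome 13 (7.94%) and for 9.02% of the 19889 tested genes outside the 10 Mb.

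**Figure D2:**
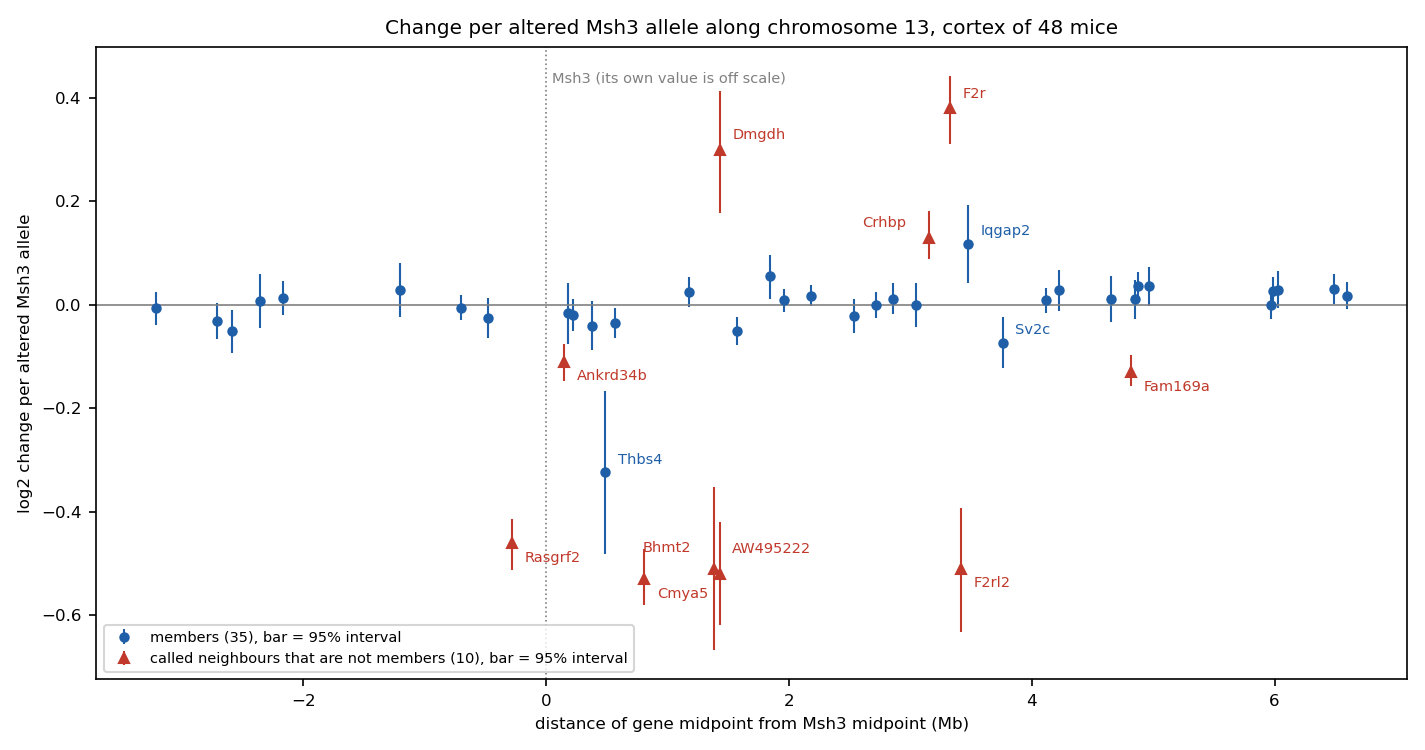
Log2 change per altered Msh3 allele against the distance of a gene's midpoint from that of Msh3 in Mb, with 95% intervals, for the 35 genes (circles) and the 10 called neighbours that are not among them (triangles). The circles lie near 0 apart from Thbs4 at -0.32 and Iqgap2 at 0.12, while triangles at -0.53 to 0.38 stand between them.

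The direction of the small changes was not spread evenly over the order. Of the 8 genes at lower coordinates than Msh3, 3 were above 0 and 5 below, from -0.051 (Vcan) to 0.029 (Atg10). From Msh3 up to Sv2c, 7 of 16 were above 0. Beyond Sv2c, from Poc5 to Tnpo1, 11 of 11 lay above 0, from 0.000 (Utp15) to 0.036. That boundary was set after the values were seen, and 4 of these 11 genes (Utp15, Gcnt4, Poc5 and Enc1) were below 0 under at least 1 alternative setting. By distance, 1 of 8 genes within 1 Mb of Msh3 was above 0, against 8 of 14 at 1 to 3 Mb and 12 of 13 at 3 to 10 Mb. These counts include Zbed3 and Utp15 at 0.000, and 47.2% of all tested genes were above 0. An unadjusted p under 0.05 was found for 2, 3 and 4 genes in the same order. In mice with Q140, 3, 7 and 11 were above 0, and in mice without Q140, 1, 6 and 10 were. The 13 genes at 3 to 10 Mb all lie at higher coordinates than Msh3 and include the 11 from Poc5 to Tnpo1. Distance and side cannot be told apart there, and the count by distance is not separate from the count by order. Neighbouring genes of 1 chromosome are inherited together in these mice, so such counts are a description.

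Among the matrix and secreted proteins, all 4 had changes below 0, 2 of them with an unadjusted p under 0.05, and Thbs4 had the largest change of the 35. Over all tested genes 47.2% were above 0, and Edil3, Hapln1 and Vcan are adjacent in the order of the 35, so this count shows no common theme. Thbs4 encodes thrombospondin 4, a secreted glycoprotein of the matrix. It ranged from 1.06 to 5.61 CPM in mice with 0 altered alleles (median 2.31), from 1.22 to 2.90 CPM with 1 (median 1.53) and from 0.897 to 2.36 CPM with 2 (median 1.38). The classes overlapped, and the top value came from 1 Q140 female at 5.61 CPM. The change per allele was -0.32 ± 0.08 (95% interval -0.48 to -0.17), which is 0.639-fold over 2 alleles, with an adjusted p of 0.0986. Its reads were few, at 4086 over all 48 libraries.

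Thbs4 was called by DESeq2 (-0.32, adjusted p = 0.0263), and in edgeR when either of 2 mice was left out. Without WT male 3 the adjusted p was 0.0389, the lowest over the 48 fits that left out 1 mouse each. Without Q140 female 4, the mouse at 5.61 CPM, it was 0.249 and the change per allele was -0.25. In mice with Q140 the change was -0.44 ± 0.11, and in mice without Q140 it was -0.20 ± 0.11. The difference of these was -0.24 (95% interval -0.56 to 0.07, adjusted p = 0.938). With 2 altered alleles, Q140 x Msh3-/- mice averaged 1.46 ± 0.44 CPM and Msh3-/- mice 1.5 ± 0.39 CPM (SD, n = 8 each). With 1, Q140 x Msh3+/- mice averaged 1.75 ± 0.54 CPM (n = 8) and Msh3+/- mice 1.71 ± 0.48 CPM (n = 9). With 0, Q140 mice averaged 2.65 ± 1.29 CPM (n = 8) and WT mice 1.98 ± 0.62 CPM (n = 7). The other thrombospondins Thbs1, Thbs2, Thbs3 and Comp were all tested and none was called, with 1 of 4 above 0.

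Vcan encodes versican, a hyaluronan-binding chondroitin sulfate proteoglycan, and its change per allele was -0.051 ± 0.021 (adjusted p = 0.451), with medians of 21.8, 22.1 and 21.2 CPM for 0, 1 and 2 altered alleles. Hapln1, the link protein that fixes such proteoglycans to hyaluronan, had -0.031 ± 0.017. Edil3, a secreted integrin ligand, had -0.007 ± 0.016. Versican RNA in adult brain comes largely from oligodendrocyte precursors, and 5 of the 6 precursor markers were below 0 too, 2 of them with an unadjusted p under 0.05 (Sox10 and Olig1, which mark the whole oligodendrocyte lineage). Of 6 markers of mature oligodendrocytes, 0 were above 0 (median -0.057) and 1 had an unadjusted p under 0.05. With 0 altered alleles the summed level of the precursor markers ranged from 420 to 473 CPM. It ranged from 414 to 456 CPM with 1 and from 394 to 463 CPM with 2. Cspg5 made up most of that sum, at a mean of 274 CPM, beside 48.9 CPM for Pdgfra and 19.3 CPM for Cspg4. The sum thus mainly follows 1 gene. The part of either list in the value for Vcan was not tested. In bulk tissue, fewer cells of a type and less RNA per cell cannot be told apart. Of the 10 other genes of the hyaluronan matrix, none was called and 2 were above 0, among them Acan (0.068 ± 0.030, adjusted p = 0.483), which encodes aggrecan.

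The lysosomal and mitochondrial enzymes held the gene with the next smallest p. Arsb ranged from 136 to 157 CPM with 0 altered alleles (median 148), from 125 to 152 CPM with 1 (median 142) and from 121 to 153 CPM with 2 (median 139). The 3 ranges overlapped over most of their width. This gave -0.050 ± 0.013 per allele, or 0.933-fold over 2 alleles, with an adjusted p of 0.163. It was -0.050 ± 0.019 in mice with Q140 and -0.050 ± 0.019 in mice without. Without the 3 libraries that carried Ttr, a choroid plexus RNA, at over 100 CPM, it was -0.062 and was called (adjusted p = 0.0333).

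Mtx3, a metaxin of the mitochondrial import machinery, had -0.036 ± 0.014 (adjusted p = 0.439), with 63.0 to 73.7 CPM in mice with 0 altered alleles, 59.7 to 73.9 CPM with 1 and 57.9 to 72.2 CPM with 2. Pde8b, a phosphodiesterase that breaks down cyclic AMP, had 0.012 ± 0.015, and Gcnt4, which branches O-glycans, had 0.012 ± 0.022. These enzymes and Fam151b showed no common direction: 2 of the 6 tested, counting Acot12, were above 0.

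Iqgap2 led the cytoskeletal genes. It encodes a scaffold that binds actin and the small GTPases Cdc42 and Rac1. Its level ranged from 32 to 58 CPM with 0 altered alleles (median 39.8), from 36.6 to 62.2 CPM with 1 (median 46.8) and from 40.1 to 62.5 CPM with 2 (median 47.7). The lower ends of the classes were ordered while the upper ends were close together. The change per allele was 0.12 ± 0.04 (1.18-fold over 2 alleles, adjusted p = 0.302). Taken apart, it was 0.11 ± 0.05 in mice with Q140 and 0.13 ± 0.06 in mice without.

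Iqgap2 is the gene in which a called neighbour sits: F2rl2 (-0.51 per allele) lies within it on the opposite strand, over 5887 bases. Whether reads were counted by strand is not given in the sources used here, so reads over that overlap cannot be assigned to 1 of the 2 genes with certainty. The 2 changes had opposite signs. Iqgap2 was the second most variable of the 35 after Thbs4, with a residual SD of 0.218 on the log2 scale, beside 0.444 for Thbs4 and 0.0454 for Ap3b1.

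The remaining cytoskeletal genes lay closer to 0. Jmy, an actin nucleator and p300 cofactor, had 0.025 ± 0.014 per allele, Enc1 had 0.036 ± 0.019, the centriole protein gene Poc5 had 0.009 ± 0.012 and Tbca, which takes up β-tubulin during folding, had -0.022 ± 0.017. None of the 5 other tubulin cofactor genes was called. Arhgef28, for which RefSeq gives Rgnef as a synonym, had 0.086 ± 0.029 (adjusted p = 0.323); it was not counted with the 35.

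Sv2c was first among the genes of membrane traffic. It encodes a synaptic vesicle glycoprotein that serves as a receptor for botulinum neurotoxin A. Its level ranged from 36.8 to 60.4 CPM with 0 altered alleles (median 53.4), from 38.3 to 58.5 CPM with 1 (median 49.7) and from 42.3 to 52.4 CPM with 2 (median 46.9). The spread narrowed from both ends, and the lowest mouse of all was WT male 1. Per altered allele the change was -0.073 ± 0.024 (0.904-fold over 2 alleles, adjusted p = 0.323), at -0.058 ± 0.034 in mice with Q140 and -0.089 ± 0.035 in mice without. The paralogs Sv2a (-0.012 ± 0.012) and Sv2b (0.017 ± 0.015) were not called. Striatal neurons also express Sv2c, and the summed level of 6 striatal markers ranged from 141 to 206 CPM with 0 altered alleles, 145 to 229 CPM with 1 and 141 to 213 CPM with 2. Their part in the value for Sv2c was not tested.

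Of the other 8 genes of membrane traffic, Fcho2, an F-BAR protein of clathrin-coated pits, had the smallest p, at 0.030 ± 0.014 per allele (adjusted p = 0.522). Serinc5, a multipass membrane protein, had -0.040 ± 0.023, and the endosomal protein gene Zfyve16 had -0.019 ± 0.015. Atg10, the enzyme that joins Atg12 to Atg5 in autophagy, had 0.029 ± 0.026, and Tmem167, a Golgi membrane protein, had 0.014 ± 0.017. Scamp1 had 0.009 ± 0.011, and Wdr41, the partner of Smcr8 and C9orf72, had -0.001 ± 0.012. None of the 6 other AP-3 subunits, the 6 autophagy conjugation genes or Smcr8 was called.

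**Figure D3:**
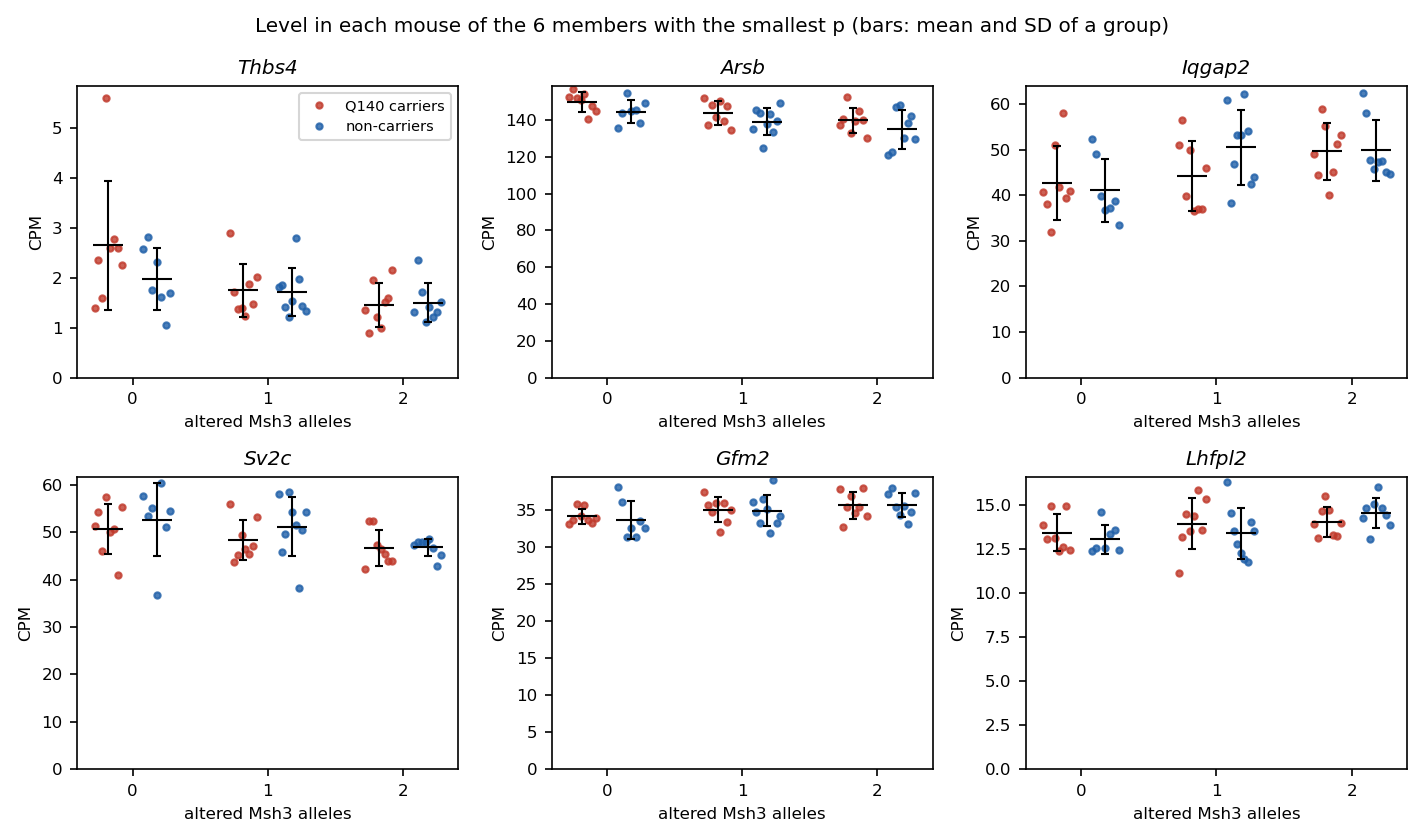
Level in CPM of the 6 genes with the smallest p, 1 point per mouse, by number of altered Msh3 alleles, with Q140 carriers left of non-carriers and bars for the mean and SD of each group. The classes overlap in all 6 panels, and 1 Q140 mouse lies at 5.61 CPM for Thbs4.

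Gfm2 had the smallest p among the genes for ribosomes, translation and nuclear import. It encodes a mitochondrial elongation factor that acts in ribosome recycling. Its level ranged from 31.3 to 38.1 CPM with 0 altered alleles (median 33.6), from 31.9 to 39.0 CPM with 1 (median 35) and from 32.7 to 38.0 CPM with 2 (median 35.4). The ranges were nearly the same while the medians differed by about the SD within a class (1.85 CPM with 0 altered alleles). The change per allele was 0.036 ± 0.013 (1.051-fold over 2 alleles, adjusted p = 0.385).

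Its head-to-head partner Nsa2, a factor of large ribosomal subunit assembly, had 0.011 ± 0.019. Nsa2 shares 1590 bases with the called gene Fam169a on the other strand, and the limit given for Iqgap2 applies there too. In the pair Ankra2 and Utp15, the ankyrin repeat protein gene Ankra2 had 0.026 ± 0.014 and Utp15, of the small subunit processome, had 0.000 ± 0.014. Btf3, the β subunit of the nascent polypeptide-associated complex, had 0.029 ± 0.018. Tnpo1, the importin transportin 1, had 0.018 ± 0.013.

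Xrcc4 and Polk are the DNA repair genes of the 35, and neither was called. Xrcc4, the partner of DNA ligase IV in end joining, ranged from 3.51 to 5.08 CPM with 0 altered alleles, from 3.25 to 5.09 CPM with 1 and from 3.32 to 4.93 CPM with 2. Its change per allele was 0.007, with a 95% interval from -0.045 to 0.059. Polk, a translesion DNA polymerase, had 11.2 to 14.3 CPM with 0 altered alleles, 11.8 to 15.3 CPM with 1 and 11.6 to 14.9 CPM with 2, and a change of 0.028 (-0.012 to 0.068). None of 8 end joining partners and none of 7 translesion partners was called, and none of either had an unadjusted p under 0.05.

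Lhfpl2, a tetraspan membrane protein, completed the 6 genes of smallest p. It ranged from 12.4 to 15.0 CPM with 0 altered alleles (median 13), from 11.1 to 16.3 CPM with 1 (median 13.5) and from 13.1 to 16.0 CPM with 2 (median 14.3). The lowest mouse with 2 altered alleles thus lay just above the median of those with 0. Per altered allele the change was 0.055 ± 0.021 (1.08-fold over 2 alleles, adjusted p = 0.416). Ssbp2, a cofactor of LIM-domain transcription complexes, had -0.006 ± 0.012 and Zbed3, an Axin-binding protein, had 0.000 ± 0.021.

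The study crosses the altered alleles with Q140, so the change per allele was also taken in carriers and in non-carriers. None of the 35 was called in mice with Q140 (0.06% of all tested genes were) or in mice without Q140 (0.035% were). The unadjusted p was under 0.05 for 6 of 35 (17.1%, beside 8.98% of all tested genes) with Q140 and for 7 (20%, beside 5.58%) without. DESeq2 and limma with voom weights called 0 of the 35 in either set. Arsb and Iqgap2 were in both sets, each with the same sign, as were 112 of the 20010 tested genes. Carriers and non-carriers share no mouse, and the sign was the same in both for 27 of the 35 (77.1%), beside 54.6% of all tested genes.

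The difference between carriers and non-carriers in the change per allele was called for none of the 35 and for 0% of all tested genes. Its unadjusted p was under 0.05 for 2 of 35, beside 5.31% of all genes. These were Zbed3, at -0.049 ± 0.028 with Q140 and 0.054 ± 0.029 without (adjusted p of the difference 0.926), and Utp15, at 0.028 ± 0.019 with Q140 and -0.031 ± 0.019 without (adjusted p = 0.926). DESeq2 and limma with voom weights called 0 of the 35 for this difference too.

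**Figure D4:**
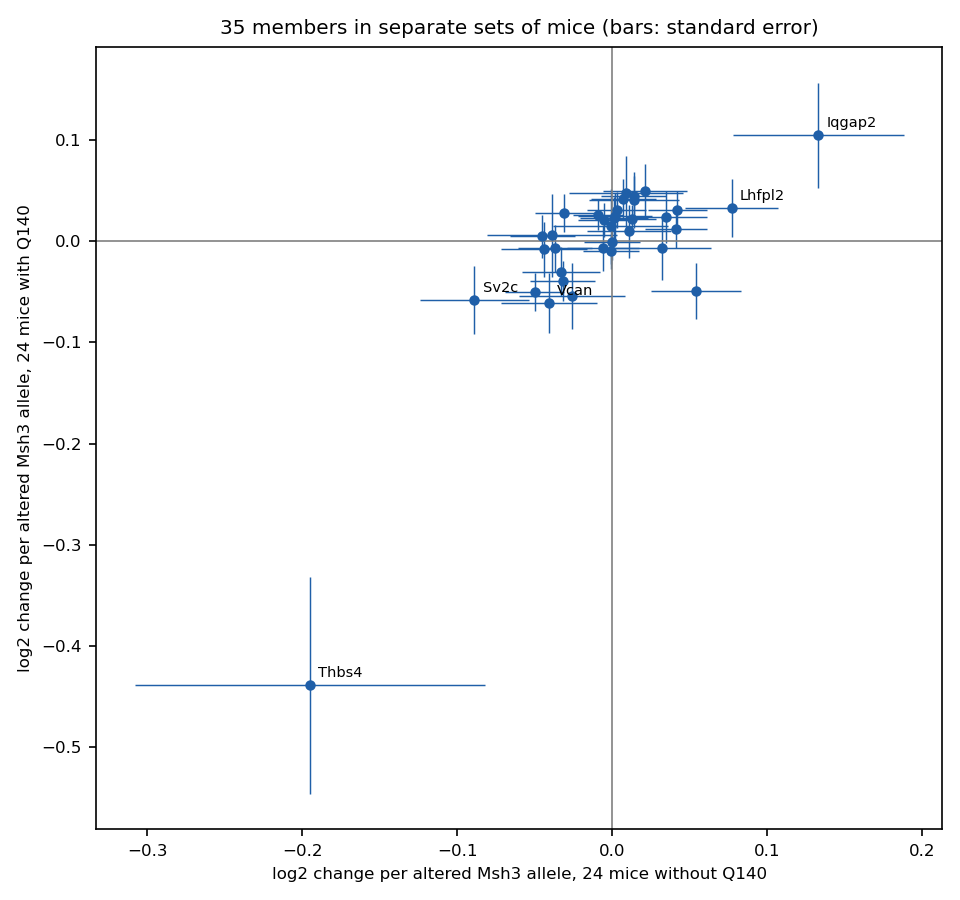
Log2 change per altered allele of the 35 genes in 24 mice with Q140 (vertical) and in 24 mice without (horizontal), with standard errors. Thbs4 stands alone at -0.44 with Q140 and -0.20 without, Iqgap2 is the highest in both, and 27 genes lie in the 2 quadrants of equal sign.

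Single genotypes gave the same count of calls. In Q140 x Msh3-/- against Q140, 0 of 35 were called, beside 0.045% of all tested genes, and 6 had an unadjusted p under 0.05 (17.1%, beside 9.07%). In Msh3-/- against WT it was 0, beside 0.035%, with 7 at an unadjusted p under 0.05 (20%, beside 5.73%). For Q140 x Msh3+/- against Q140 it was 0, beside 0.02%, with 3 at an unadjusted p under 0.05 (8.57%, beside 5.14%). For Msh3+/- against WT it was 0, beside 0.025%, with 3 at an unadjusted p under 0.05 (8.57%, below the 9.5% of all tested genes). DESeq2 and limma with voom weights called 0 of the 35 in these 4 comparisons. The comparisons with Q140 share the Q140 mice, and those without share the WT mice.

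Thbs4 had the lowest value of the 35 in all 4, at -0.87 ± 0.22 in Q140 x Msh3-/- against Q140, -0.60 ± 0.22 in Q140 x Msh3+/- against Q140, -0.39 ± 0.23 in Msh3-/- against WT and -0.20 ± 0.22 in Msh3+/- against WT. Iqgap2 had 0.21 ± 0.10, 0.04 ± 0.10, 0.27 ± 0.11 and 0.29 ± 0.10 in these comparisons in the same order. For Ap3b1, Msh3+/- against WT gave 0.078 ± 0.026 (adjusted p = 0.351), while Msh3-/- against WT gave 0.029 ± 0.026. Neither passed the threshold.

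No mouse-by-mouse separation was found. Over all tested genes, 5 (0.025%) had ranges in mice with 2 and with 0 altered alleles that did not overlap, namely Msh3, F2rl2, Rasgrf2, Cmya5 and F2r, and 0 of the 35 were among them.

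Q140 itself was compared over all Msh3 genotypes. In carriers against non-carriers 0 of 35 were called, beside 0.045% of all tested genes, and 3 had an unadjusted p under 0.05 (8.57%, beside 5.62%). Enc1 had the smallest p, with 650 to 903 CPM in carriers (median 775) and 729 to 990 CPM in non-carriers (median 828). The ranges overlapped from 729 to 903 CPM. Its difference was -0.098 ± 0.030 (0.934-fold, adjusted p = 0.492). Arsb had 0.051 ± 0.021 and Utp15 had 0.047 ± 0.022. DESeq2 and limma with voom weights called 0 of the 35 for Q140.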

How the data were processed

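The deposited counts are whole numbers of reads per Ensembl gene for 48 mice, and the authors' deposited FPKM values scale them by length and library total. Alignment and counting tools listed in the submitters' processing notes are HTSeq 0.12.3, STAR 2.7.5c and SAMtools 1.10, on GRCm38 (mm10), with no strand setting. RNA was extracted with RNeasy kits and libraries were TruSeq stranded, per the labels' protocols. Positions are from GENCODE M21, matched for 48435 of 48795 gene IDs, and promoter windows from RefSeq (GRCm38.p6, 250 bases before to 50 after a start).

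Counts were fitted in R 4.3.3 with edgeR 4.0.16: TMM factors, filterByExpr on genotype (20010 genes kept, 99.963% of counts) and quasi-likelihood F-tests, with Benjamini-Hochberg over all tested genes and calls at an adjusted p under 0.05. The model had the number of altered Msh3 alleles, Q140 and sex, with an allele-by-Q140 term for carriers and non-carriers apart, and the 6 groups and sex for single genotypes. CPM use TMM-scaled library sizes. The fits were tested on simulated data. Of 50 genes with a simulated 1.05-fold change per allele 52% were called, and of 50 with 1.1-fold 78%, so changes of that size can be missed. The simulated set gave 169 calls, 8 of them false, while the data gave 13, so the 2 settings differ. With fewer calls the Benjamini-Hochberg cut is stricter, so the simulated shares may be too high for the data. No library was a copy of another of its group (chi-square per degree of freedom 4 to 29 in 169 pairs). The standard error per allele was widest for Thbs4, at 0.079.

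Fully described were Msh3 and the 6 genes with the smallest p by allele number. The highest and lowest 3 by FPKM were also named, and all others got their change per allele. The members and all lists were chosen with earlier results of these data known. Alternatives were RLE factors, no filter, a filter of 1 CPM in 7 mice, limma 3.58.1 (voom, or log2 of FPKM plus 0.1 or plus 1), DESeq2 1.42.0, a replicate block, the plate column, a block for the column-name stem, no sex term, each sex alone, a linear contrast over the 6 groups, and left-out libraries.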

Additional observations from a re-analysis of the deposited data

Results flagged for a closer look

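Among the 6 genes with the smallest p, each of the 6 groups of 7 to 9 mice was searched for 1 mouse far from the others, with a gap above Dixon's critical value. Of 36 such gene and group pairs, 4 held one, where chance gives about 1 in 20 if values within a group are normal. The search used CPM and not the log2 scale of the changes. High values of a gene with a low level stand out more in CPM, so the count is a description and no excess over chance is claimed. Thbs4 had 3 of them, each a high value. It was 5.61 CPM in Q140 female 4, where the next mouse of the group had 2.78. It was 2.90 CPM in Q140 x Msh3+/- female 1, where the next had 2.01, and 2.80 CPM in Msh3+/- male 1, where the next had 1.98. Sv2c had the other, a low value of 36.8 CPM in WT male 1, where the next mouse had 51.1.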

How the results depend on the processing

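The count of the 35 genes called by number of altered Msh3 alleles was 0, and it became 1 with DESeq2 (Thbs4, adjusted p = 0.0263) and 1 without the 3 libraries with Ttr above 100 CPM (Arsb, adjusted p = 0.0333). Over the 48 fits that left out 1 mouse each it ranged from 0 to 1, with Thbs4 called without Msh3-/- female 2 and without WT male 3. All other counts of these genes stayed at 0 under the alternatives run for them. Over all tested genes, the 13 called by allele number became 32 with DESeq2, 36 with voom weights and 28 with the plate column. In mice without Q140, 7 became 14 with DESeq2 and with voom weights, and in Msh3-/- against WT also 7 became 14 with each. In Msh3+/- against WT, 5 became 12 with DESeq2 and 1 with the plate column, and for Q140, 9 became 15 with DESeq2 and 4 without the Ttr libraries. The causes were not tested. Of 560 values over the 35 genes and 16 alternatives, 27 had another sign, in 10 genes, none of them called. Thbs4 lay between -0.39 (females only) and -0.11 (log2 of FPKM plus 1, a pseudocount above its own level), and was -0.26 in males. No scaling moved the median of all genes by more than 0.002.

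The labels number mice within sex and group. With that number as a replicate block, 0 of the 35 were called by allele number. Same-numbered mice did not deviate together (mean r -0.0312 over 115 pairs, 2 above 0.1), so the numbers do not pair them. For the column-name stem the mean r was 0.0434 over 23 pairs and the estimated correlation 0.0952. The labels do not say whether mice shared a litter, and p-values treat them as independent. Precision was lowest for Thbs4 (SE 0.079).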
